A study of Mus musculus with 20 samples.

Results

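The sites described here are A-to-G positions of mouse poly(A) RNA at which antibody-directed editing could be read against a silent background. A site was kept if its reference base on the genome was A or T, if all 6 libraries of the fresh-frozen E10.5 table covered it with 10 or more reads, and if the 2 untreated libraries together held 40 or more reads and no edited one. There were 32737 such sites, called members below, among 150516 unique sites of that table and 882870 unique sites over the 4 editing tables of the study. They lay in 7418 host genes. Of the 45884 A-to-G sites with 10 reads in all 6 libraries, 9639 were left out for untreated edited reads and 3508 for shallow untreated coverage.

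Poly(A) RNA was sequenced after MAPIT-seq, which brings the fusion rAPOBEC1-pAG-hADAR2 to a protein through antibodies so that transcripts near that protein are edited. The libraries came from wild-type C57BL/6J mice and fell into 3 fresh-frozen groups of 2. One received Anti-G3BP1, one received rabbit IgG, and one was left untreated. Both antibody groups were fixed with 0.2% formaldehyde and then received a secondary antibody (guinea pig, against rabbit) followed by the fusion, whereas the untreated group had neither antibodies, fusion nor fixation. Untreated and antibody libraries therefore differ in fixation as well as in the enzyme, and these cannot be told apart. Libraries of fixed E10.5 embryo, E12.5 brain and E16.5 brain are used below only as places where the same sites can be read again. Each has 2 Anti-G3BP1 and 2 IgG libraries, fixed with 0.2% formaldehyde. Fixed E10.5 embryo also has 2 untreated libraries, for which no formaldehyde percentage is listed. Whether the replicates came from different animals is not stated in the labels, and p-values therefore reflect only library-to-library spread, which may be technical.

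G3BP1 is an RNA-binding protein of the cytoplasm that nucleates stress granules when translation stops. The ADAR2 deaminase converts adenosine in base-paired RNA to inosine, which sequencing reads as G, and as an enzyme it is known to disfavour a G just before the edited A. In neurons the endogenous ADAR enzymes recode a small set of receptor and channel transcripts, and a position read as edited in the untreated libraries cannot be a member.

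The libraries labelled fresh-frozen E10.5 embryo held neuronal RNA and little of the body that the label names. The 5 markers of late neurons summed to 883 and 974 TPM (a transcript level scaled for length and depth) in Anti-G3BP1 libraries. The sums were 1052 and 1097 TPM in IgG libraries and 871 and 753 TPM in untreated libraries. They were lower with Anti-G3BP1 than with IgG without overlap. Syt1 did not follow, with 295 and 286 TPM in Anti-G3BP1 libraries, against 267 and 289 TPM in IgG libraries. Over all 6 libraries the 5 heart markers summed to between 6.81 and 26.8 TPM, the 4 liver and yolk sac markers to between 4.94 and 11.1 TPM, and the 4 trunk Hox genes to between 0 and 0.981 TPM, with Hoxa10 and Hoxc10 not listed. Astroglial markers summed to 70.0 and 91.1 TPM in Anti-G3BP1 libraries, against 28.6 and 31.3 TPM in IgG libraries and 114 and 119 TPM in untreated libraries. Slc1a3 and Aldh1l1 carried the sum. Aqp4 went the other way at low levels, with 0.503 and 0.595 TPM in Anti-G3BP1 libraries, against 2.39 and 0.767 TPM in IgG libraries. Blood markers summed to 651 and 645 TPM in Anti-G3BP1 libraries, against 416 and 496 TPM in IgG libraries and 692 and 1162 TPM in untreated libraries. Endothelial markers summed to 147 and 151 TPM in Anti-G3BP1 libraries, against 104 and 145 TPM in IgG libraries and 78.4 and 101 TPM in untreated libraries. The part of these differences in the editing results was not tested, and in such bulk RNA fewer cells of a type cannot be told apart from less RNA per cell.

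The sequences below are 11 members chosen, with their values known, among those with the most edited reads and those called. Each is 21 bases of the transcript, 5′ to 3′, with the edited A and its neighbours in capitals. They were read from GENCODE M21 transcripts, and coordinates are on mm10 (GRCm38).
Plxna1, 3′ untranslated region, minus strand, chr6:89316768-89316788: ttggacagcTAGacagagcag
Mest, 3′ untranslated region, plus strand, chr6:30747372-30747392: gtgacatgaTAAtcctctcat
Map1b, 3′ untranslated region, minus strand, chr13:99422948-99422968: ccctgtcctCAGtgatggcca
Snrnp200, 3′ untranslated region, plus strand, chr2:127240240-127240260: aatgtggacTAGgtctgtcag
Tuba1a, 3′ untranslated region, minus strand, chr15:98949940-98949960: gttaatttgTATgtggcaatg
Cox4i1, coding sequence, plus strand, chr8:120674090-120674110: aatgagtggAAGaagtgagag
Uchl1, 3′ untranslated region, plus strand, chr5:66686960-66686980: ttccctgggCAGgtgcgcgcg
Stmn2, coding sequence, plus strand, chr3:8545670-8545690: agcttctccAAAgaagaaaga
Apba1, 3′ untranslated region, plus strand, chr19:23949219-23949239: cacttggggTATgaacccaca
Mapt, 3′ untranslated region, plus strand, chr11:104331169-104331189: tgggtgggcTAGatagatagg
Rian, non-coding exon, plus strand, chr12:109635942-109635962: atcttgtttTAGggactgtgt

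Members also crowd together, and 3 stretches of 30 transcript bases show how. In each, every A that is a member is in capitals and all other bases are in lower case. They were chosen after their values were seen.
Scd2, 3′ untranslated region, plus strand, chr19:44303571-44303600: gctctgAgttagaaatAcaAgAAAaatctt
Zfp827, 3′ untranslated region, plus strand, chr8:79191360-79191389: cacAcaaAcacaaaAcAcacAcAcAcAcaa
Slc25a12, 3′ untranslated region, minus strand, chr2:71274420-71274449: cacacAcacAcAcAcAcacacacAcAcaca
In Scd2, a fatty acid desaturase gene, 6 of the 13 A bases were members, and they held 49 and 34 edited reads in Anti-G3BP1 libraries, against 13 and 11 in IgG libraries. The Zfp827 stretch, a run of CA repeats with 8 members, held 6 and 15 edited reads in Anti-G3BP1 libraries, against 2 and 2 in IgG libraries. The CA repeat of Slc25a12 had 7 members and 0 edited reads in each of the 4 antibody libraries. In all, 478 members had no edited read in any library. More than 1 alternative base was listed at 773 members, and a deletion symbol at 379. Spacing and runs below count all members, with these included, so they describe listed positions and not only positions seen edited. With members of 1 listed alternative only, the fold between antibodies given next was 2.52.

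At members, both Anti-G3BP1 libraries held more editing than either IgG library. Edited reads made up 1.80% and 1.86% of all reads at members in Anti-G3BP1 libraries, against 0.692% and 0.767% in IgG libraries. The means were 1.83% ± 0.0430 and 0.730% ± 0.0525 (SD, n = 2 each), a 2.51-fold difference, or 1.33 on the log2 scale. The groups did not overlap, but an exact two-sided permutation test of 2 libraries against 2 gave p = 0.333, the smallest it can give. In the untreated libraries members had 0 edited reads of 2372411 and 2131602 reads by the rule that chose them, which is no finding. Mean depth per member was 65.5 and 95.8 reads in Anti-G3BP1 libraries, 57.6 and 58.0 in IgG libraries and 72.5 and 65.1 in untreated libraries. The antibody libraries themselves bear on which sites were listed. The highest of them held 2 or more edited reads at 97.6% of members, and 62.9% of members had edited reads with Anti-G3BP1 alone. The part of listing and depth in the 2.51-fold difference was not tested.

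The silence of the untreated libraries limits single members only loosely. The 2 untreated libraries together covered the median member with 111 reads, and 0 edited reads of 111 allow a share of up to 2.70%, which is above the mean share with Anti-G3BP1. At the minimum of 40 reads the limit is 7.50%, and at the deepest member, with 2710 reads, it is 0.111%. These limits cover counting error only. Sites just inside and outside the threshold of untreated depth had like values, which did not hold for every threshold. Members with 40 to 44 untreated reads had a mean share of 2.81% with Anti-G3BP1 and 1.25% with IgG, and sites with 35 to 39 untreated reads and none edited had 2.78% and 1.30%. Members whose shallowest of 6 libraries had 10 to 11 reads stood at 3.88% with Anti-G3BP1 and 1.81% with IgG. Sites left out at 8 to 9 reads stood at 4.54% and 2.02%. Sites left out for 1 untreated edited read had 1.79% with Anti-G3BP1 and 0.857% with IgG, whereas those with 2 had 0.410% and 0.245%.

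Other site classes of the same libraries showed a smaller excess. C-to-T sites chosen by the same rule, the product of the rAPOBEC1 part of the fusion, numbered 40471 and had 0.989% and 1.0% edited reads with Anti-G3BP1, against 0.600% and 0.598% with IgG, a 1.66-fold difference. A-to-G sites with untreated edited reads had 1.14% and 1.10% with Anti-G3BP1, against 0.711% and 0.757% with IgG, a 1.52-fold difference. In untreated libraries this last class stood at 1.30% and 1.25%, above its level in all 4 antibody libraries. Untreated reads could themselves bring such a site into the table, so the classes entered it by different routes, and the difference between them was not tested.

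**Figure D1:**
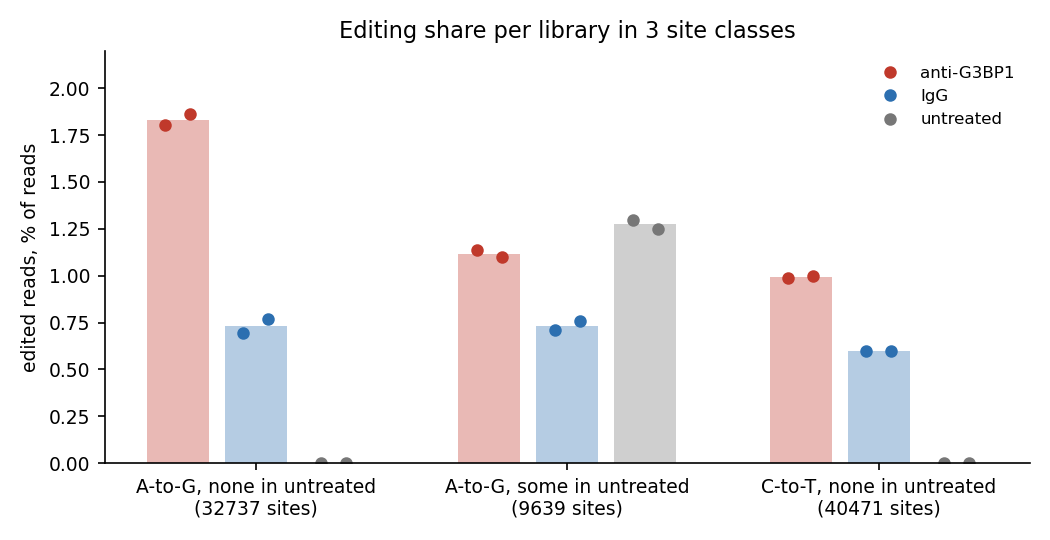
Share of edited reads (% of reads, y axis) per library in 3 classes of site of the fresh-frozen table, with Anti-G3BP1, IgG and untreated libraries from left to right. Points are libraries and bars are means of 2. Members, on the left, reach 1.80% and 1.86% with Anti-G3BP1 and stay below 0.8% with IgG, and the 0 in untreated libraries is set by the rule.

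Most members rested on few edited reads in 1 library. Of the 32737 members, 20586 (62.9%) had edited reads with Anti-G3BP1 and none with IgG, 5453 (16.7%) had them with both, and 6220 with IgG alone. Only 1 of the 4 antibody libraries held edited reads at 23074 members (70.5%), and 817 (2.5%) had them in all 4. The highest library held 2 or more edited reads at 97.6% of members and exactly 2 at 74.8%, and the rule by which a site entered the table is not given in the sources used here. Of the members edited in Anti-G3BP1 replicate 1, 44.4% were also edited in replicate 2, which had edited reads at 56.1% of all members. Of those edited in replicate 2, 33.4% were also edited in replicate 1, which had edited reads at 42.2% of all members. Between the IgG libraries the shares were 21.3% and 19.4%, against 20.8% and 18.9% of all members. Sharing between replicates was thus below the rate over all members with Anti-G3BP1 and within 1 percentage point of it with IgG. Only 478 members had no edited read in any antibody library. Such listing can lower sharing by itself, so these rates do not measure agreement between replicates.

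Members with an edited read numbered 13808 and 18361 in Anti-G3BP1 libraries, against 6196 and 6795 in IgG libraries, a 2.48-fold difference in means that did not overlap between groups (exact permutation p = 0.333, the smallest possible). After every site was thinned to the depth of its shallowest library the difference was 2.19-fold. Thinning came after listing, so it does not remove the part of listing in this difference. Edited reads in both libraries of one antibody and neither of the other were found at 3505 members (10.7%) for Anti-G3BP1 and 227 (0.693%) for IgG. Highly edited members were rare. A pooled share of 10% or more was reached by 837 members with Anti-G3BP1 and 116 with IgG, and 20% or more by 104 and 8. The 100 members with most edited reads held 6.90% of all edited reads in the antibody libraries, and the top 1000 held 24.3%.

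The share of edited reads depended on depth while the fold between antibodies varied little. At members with a mean of 10 to under 20 reads per antibody library the share was 5.17% and 5.18% with Anti-G3BP1, against 2.03% and 2.12% with IgG. It was lower in each deeper class up to 160 reads. At 80 to under 160 reads it was 1.24% and 1.26% with Anti-G3BP1, against 0.488% and 0.547% with IgG. The 1319 members with 160 or more reads stood apart with 2.31% and 2.36% with Anti-G3BP1, against 0.689% and 0.762% with IgG, a 3.22-fold difference. In the other 4 depth classes the fold lay between 2.34 and 2.5. Anti-G3BP1 and IgG libraries did not overlap in any of the 5 classes, in share or in the percentage of members detected. The part of the unknown listing rule in the fall with depth was not tested.

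**Figure D2:**
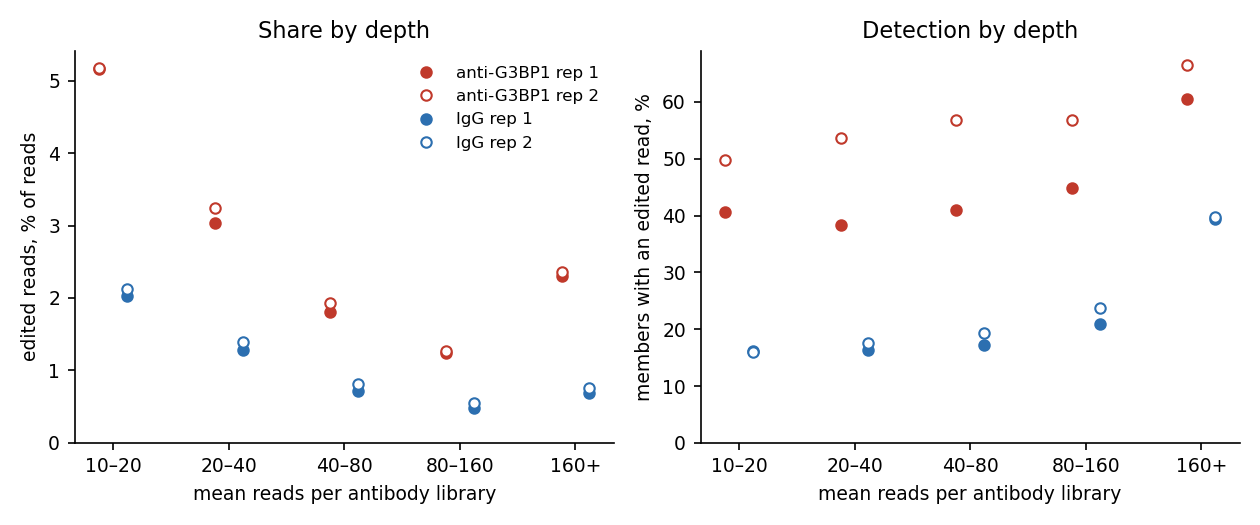
Members by mean depth in the antibody libraries (x axis, reads). The left panel gives edited reads as % of reads and the right panel the % of members with an edited read, with 1 point per library and Anti-G3BP1 drawn to the left of IgG. The share falls from over 5% to about 1.25% with Anti-G3BP1 and rises again to 2.31% and 2.36% in the deepest class, while detection in the deepest class reaches 60.5% and 66.5% with Anti-G3BP1 and 39.3% and 39.8% with IgG.

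Most members lay in 3′ untranslated regions, and there the excess with Anti-G3BP1 was larger than in other exons. The 24447 members in 3′ untranslated regions had 1.85% and 1.94% edited reads with Anti-G3BP1, against 0.658% and 0.752% with IgG (2.69-fold). The 6676 in coding sequence had 1.73% and 1.67% with Anti-G3BP1, against 0.815% and 0.794% with IgG (2.11-fold). In the 1450 members of non-coding exons the values were 1.18% and 1.31% with Anti-G3BP1 and 0.822% and 0.899% with IgG (1.45-fold), and the 132 members of 5′ untranslated regions stood at 1.36-fold. The remaining 32 members lay outside annotated exons. Among these exon classes the mean Anti-G3BP1 share was highest in 3′ untranslated regions and the mean IgG share was lowest there. The difference between regions was not tested. Within coding sequence, 1962 members were at the first codon position (1.89-fold), 2705 at the second (2.18-fold) and 1890 at the third (2.27-fold). The stop codon itself held 105 members (2.58-fold), which are counted above with the 3′ untranslated regions.

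The base before the edited A leaned the way the known preference of ADAR2 does. T stood before 31.7% of members, against 16.6% of all A bases in the host transcripts, and G before 14.9% of members, against 26.5% of all A bases. A stood before 34.3% and C before 19.1%, against 28.2% and 28.8% of all A bases. G followed 50.99% of members, against 30.3% of all A bases. The excess with Anti-G3BP1 moved the same way, at 2.88-fold after T, 2.68-fold after A, 2.26-fold after C and 1.58-fold after G. Members in TAG, the capitals of 4 of the 11 single sites printed above, had 2.6% and 2.83% edited reads with Anti-G3BP1, against 0.856% and 1.01% with IgG. Members in GAA, at the other end, had 0.976% and 0.844% with Anti-G3BP1, against 0.732% and 0.682% with IgG. With IgG the mean share lay between 0.623% after C and 0.850% after T. All A bases were counted over full host transcripts and not matched to members in region or depth. As 74.7% of members lay in 3′ untranslated regions, base composition may account for part of the percentages, which was not tested.

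Members were closely spaced, and the excess with Anti-G3BP1 was larger where they were closest. The median distance to the nearest member was 62 bases, against 49 bases among C-to-T sites of the same rule and 364 bases among A-to-G sites with untreated edited reads. Another member lay within 50 bases of 45.4% of members, and another site of its own class within 50 bases of 50.5% of C-to-T sites and 17.8% of A-to-G sites with untreated edited reads. At short range the order of the 2 silent classes turned round, with 12.4% of members and 9.41% of C-to-T sites within 5 bases of another. Directly adjacent neighbours were found at 1397 members and 454 C-to-T sites. Class sizes differ and set part of these distances.

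Linking members no more than 50 bases apart gave 5925 runs of 2 or more with 14863 members, and 273 runs had 5 or more. The 4 longest were in the 3′ untranslated regions of Csrnp3 (11 members in 61 bases), Fbxo11 (10 in 117 bases), Dcc (10 in 153 bases) and Fam155a (10 in 152 bases). Csrnp3 had 1.86% and 4.22% with Anti-G3BP1, against 1.15% and 3.11% with IgG, and the groups overlapped. Dcc, which encodes a netrin receptor of growing axons, had 5.84% and 4.88% with Anti-G3BP1, against 1.26% and 2.30% with IgG, without overlap. Fam155a had 1.17% and 1.12% with Anti-G3BP1, against 1.06% and 0.996% with IgG.

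Members 1 to 10 bases from the next had 1.86% and 2.02% edited reads with Anti-G3BP1, against 0.582% and 0.683% with IgG (3.07-fold). Members more than 1000 bases away had 2.08% and 1.98% with Anti-G3BP1, against 0.938% and 1.02% with IgG (2.08-fold), and the 3 classes between lay at 2.38 to 2.52-fold. The trend came with the IgG share, which was lowest at close spacing and highest at wide spacing, while the Anti-G3BP1 share had no such order. Neighbouring members share reads and are not independent, and the trend was not tested.

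**Figure D3:**
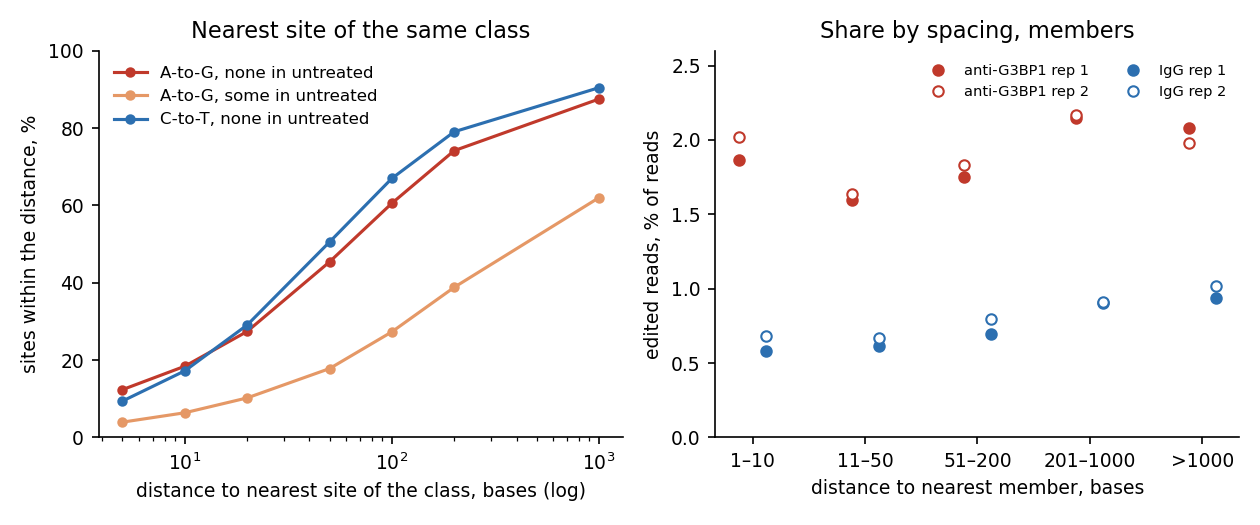
Left, cumulative % of sites (y axis) with another site of their class within a distance in bases (x axis, log scale) for members, A-to-G sites with untreated edited reads and C-to-T sites. Right, edited reads as % of reads at members by distance to the nearest member, 1 point per library, Anti-G3BP1 left of IgG. The IgG points stand at 0.582% and 0.683% at the closest spacing and at 0.938% and 1.02% at the widest, whereas the Anti-G3BP1 points lie between 1.59% and 2.17% without a steady order.

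Gene by gene, edited and unedited reads at members were summed and compared between antibodies with a quasi-binomial logistic model whose dispersion was moderated with limma. Effects are log2 odds ratios, positive where editing was higher with Anti-G3BP1. Of the 7418 host genes, 5488 had 50 or more member reads in each antibody library and were tested together with the other site classes of the table, 15343 features in all. The 2 Anti-G3BP1 shares lay above both IgG shares in 2629 of the 5488 genes (47.9%), against 34.5% of all features, and below both in 174 (3.17%), against 5.44% of all features. After adjustment over all features (Benjamini-Hochberg), 12 member genes rose and 0 fell, against 0.104% of all features called higher. At an unadjusted p under 0.05 there were 1230 higher, against 13% of all features, and 55 lower. The median log2 odds ratio was 1.31 over member genes, against 0.83 over all features.

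The count of called genes depended on the settings. The smallest adjusted p in that fit was 0.0420, and 0 genes were called when any 1 of the 4 libraries was left out. limma on the empirical logit also called 0, with 1110 higher and 57 lower at an unadjusted p under 0.05. edgeR's quasi-likelihood test called 17 genes, but 6 of the 12 described next lost their call, with an adjusted p of 0.0626 for Tuba1a, 0.0927 for Stmn2, 0.189 for Cox4i1, 0.0947 for Tspan13, 0.0526 for Ndfip1 and 0.0542 for Nynrin. Restricting the test to genes with 20 or more edited reads, chosen after the data were seen, gave 594 higher and 0 lower of 1851 genes.

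Among the 12 genes that rose, Stmn2, which encodes a microtubule regulator of growth cones, had 7.65% and 5.46% edited reads at its 6 members with Anti-G3BP1, against 1.25% and 1.18% with IgG (log2 odds ratio 2.45 ± 0.51, SE). Tuba1a, the main alpha-tubulin gene of new neurons, had 6.99% and 5.54% with Anti-G3BP1, against 0.413% and 0.993% with IgG (3.17 ± 0.72). The groups did not overlap in either gene.

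Scn2a, a voltage-gated sodium channel gene, had 2.67% and 3.24% at 21 members with Anti-G3BP1, against 0.304% and 0.431% with IgG (2.99 ± 0.67). Bcl11b, a transcription factor gene of deep-layer cortical neurons, had 3.78% and 4.09% at 32 members with Anti-G3BP1, against 0.901% and 1.15% with IgG (1.98 ± 0.40). Cox4i1, a nuclear gene for a subunit of cytochrome c oxidase, had a single member at 10.6% and 12.55% with Anti-G3BP1, against 0.833% and 2.16% with IgG (3.07 ± 0.69). All of these had the same adjusted p of 0.0420.

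Apba1, an adaptor of synaptic vesicle release, had 7.31% and 6.05% with Anti-G3BP1, against 0.465% and 0% with IgG. Nynrin had 5.61% and 4.96% with Anti-G3BP1, and 0 edited reads of 620 with IgG, which allows up to 0.484% over the 2 libraries and makes the pooled share at least 10.8-fold higher with Anti-G3BP1. The other called genes were Igsf3, Hnrnpa0, Tspan13, Scamp1 and Ndfip1, with Anti-G3BP1 shares between 1.56% and 8.69% and IgG shares between 0.0946% and 1.74%. In 9 of the 12 genes 50% or more of the edited reads came from the top site, as with 113 of 120 in Tuba1a and 57 of 73 in Apba1. Without the 100 members with most edited reads, the log2 odds ratio of Tuba1a was -0.32. Scn2a was spread more evenly, with 25 of 114 at its top site. For bulk RNA levels, limma on log2(TPM + 1) called 0.0% of 22298 genes between Anti-G3BP1 and IgG, with 2745 at an unadjusted p under 0.05. Tuba1a had 4223 and 3522 TPM in Anti-G3BP1 libraries, against 3828 and 4339 TPM in IgG libraries, and the groups also overlapped for Igsf3 and Nynrin. All other called genes had lower TPM in both Anti-G3BP1 libraries than in either IgG library. Bcl11b had 231 and 244 TPM with Anti-G3BP1, against 304 and 343 TPM with IgG. Stmn2 had 753 and 742 TPM with Anti-G3BP1, against 880 and 879 TPM with IgG. The part of these levels in the editing differences was not tested.

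**Figure D4:**
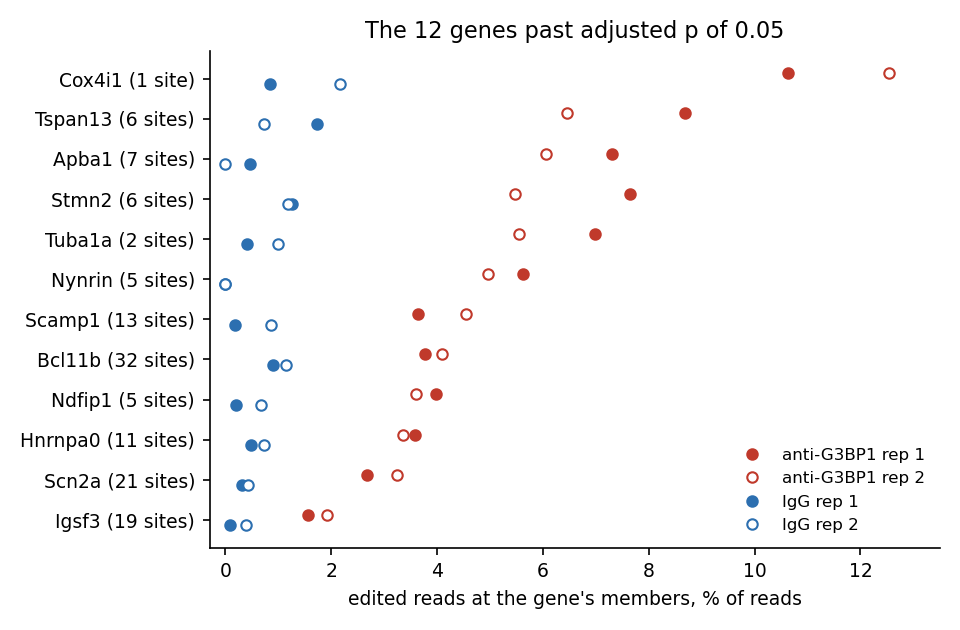
Edited reads at a gene's members as % of reads (x axis) for the 12 genes past an adjusted p of 0.05, 1 point per library, with Anti-G3BP1 points above IgG points in each row. All Anti-G3BP1 points lie right of the IgG points of their gene, from Igsf3 at 1.56% and 1.93% to Cox4i1 at 10.6% and 12.55%.

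None of the 12 genes with the most members was called. Zbtb20, a transcription factor gene with 72 members, had 0.995% and 1.48% with Anti-G3BP1, against 0.851% and 0.732% with IgG (adjusted p = 0.409 in the same moderated quasi-binomial fit). Kcnq1ot1, a long non-coding RNA of an imprinted locus that stays in the nucleus, had 64 members with 1.11% and 1.22% with Anti-G3BP1, against 0.795% and 0.586% with IgG (adjusted p = 0.396). It lies antisense to another gene, and the sources used here do not say whether reads carry their strand. Fzd3, a Wnt receptor gene of axon tracts, had 58 members with 2.91% and 3.06% with Anti-G3BP1, against 0.517% and 0.951% with IgG (log2 odds ratio 2.07 ± 0.47, adjusted p = 0.0544).

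Ank3 and Zfhx3 followed with 57 members each. Ank3, the ankyrin of the axon initial segment, had 1.48% and 1.70% with Anti-G3BP1, against 0.794% and 0.553% with IgG. Zfhx3 had 0.762% and 0.629% with Anti-G3BP1, against 0.363% and 0.251% with IgG, low with both. In Ube3a, Map2, Ankrd12, Ptprz1 and Grin2b, with 38 to 46 members, the groups did not overlap either, and the log2 odds ratios lay between 1.11 and 1.61. Stox2, with 39 members, had 4.01% and 3.56% with Anti-G3BP1, against 2.25% and 2.59% with IgG (0.64 ± 0.35). In 9330162G02Rik, with 55 members, the groups overlapped, at 0.936% and 1.52% with Anti-G3BP1, against 0.458% and 0.941% with IgG (0.95 ± 0.44).

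Gene lists of neuronal and granule biology, chosen with earlier results of these data known, are described by their counts beside the 47.9% of all tested member genes with both Anti-G3BP1 shares above both IgG shares. Of the neuronal cytoskeleton list 25 of 26 genes had members and all 25 were tested. The Anti-G3BP1 shares stood above both IgG shares in 20, 2 were called (Tuba1a and Stmn2), and the median log2 odds ratio was 1.70. Map1b, a microtubule-binding protein gene of axons, had 3.45% and 3.87% at 38 members with Anti-G3BP1, against 1.39% and 1.10% with IgG (adjusted p = 0.0605). Map2, its dendritic counterpart, had 1.91% and 2.70% with Anti-G3BP1, against 0.473% and 1.19% with IgG.

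Axonal transport motors had 9 of 13 tested genes without overlap and a median of 1.46, with Kif1b, a motor of synaptic vesicle precursors, at 1.91% and 2.47% with Anti-G3BP1, against 0.542% and 0.741% with IgG. The axon guidance and adhesion list had 17 of 22 higher without overlap, 1 lower and a median of 1.46. In it Dcc had 5.72% and 6.35% at 28 members with Anti-G3BP1, against 1.59% and 2.23% with IgG (1.72 ± 0.37, adjusted p = 0.0544). Synapse genes had 15 of 23 and a median of 1.17, and long FMRP targets 11 of 14 and a median of 1.53. None of these lists held a called gene.

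Among RNP granule proteins, which G3BP1 itself belongs to, 10 of 21 tested genes were higher without overlap and the median was 1.0, below that of all member genes, while the fold of the pooled share was 2.79, above the 2.51 over all members. Pum2, an RNA-binding repressor, had 2.63% and 3.24% at 18 members with Anti-G3BP1, against 0.561% and 0.628% with IgG. Ddx6, the P-body helicase, had 2.43% and 2.59% with Anti-G3BP1, against 0.339% and 0.697% with IgG. Both had an adjusted p of 0.0547. G3bp1 had 0.576% and 1.25% at 10 members with Anti-G3BP1, against 0% and 1.01% with IgG, and its groups overlapped. G3bp2, its paralogue, had 1.47% and 2.71% with Anti-G3BP1, against 0.460% and 0.974% with IgG, and Caprin1, its granule partner, had 1.55% and 2.22% with Anti-G3BP1, against 0.170% and 0.864% with IgG.

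Chaperones had 8 of 10 tested genes higher without overlap (median 2.25) and translation factors 9 of 12 (median 1.77), with Eif3a at 2.08% and 1.64% with Anti-G3BP1, against 0.583% and 0.393% with IgG. Lists at the low end were cytosolic ribosomal proteins, with 3 of 11 higher, 1 lower and a median of 0.33, and nuclear long non-coding RNAs, with 2 of 7 and a median of 0.24. Over all members of the nuclear list the share was 1.08% with Anti-G3BP1 and 0.857% with IgG, a 1.26-fold difference, against 2.51-fold over all members. Known A-to-I recoding targets had 7 of 13 higher without overlap and a median of 0.88. Gria2, the glutamate receptor gene whose endogenous recoding is best known, had 0.640% and 0.796% at 23 members with Anti-G3BP1, against 0.777% and 0.793% with IgG. Its groups overlapped, and its direction turned with the filters, as given in the closing part. Only 2 of 13 mitochondrially encoded mRNAs had members, 3 in all, with 1 of the 2 higher without overlap and a median of 2.15, and mt-Co1 held 2 with 4.83% and 5.87% with Anti-G3BP1, against 1.5% and 3.15% with IgG.

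Single sites were tested where the 4 antibody libraries together held 8 or more edited reads, which left 2616 members among 3904 sites of all classes. Of these members 28 of 2616 rose and 0 fell at an adjusted p under 0.05. Over all tested sites 41 of 3904 (1.05%) were called higher, about the same rate, so such calls are not particular to members. Among the other A-to-G sites 12 of 785 were called higher. Both Anti-G3BP1 shares lay above both IgG shares at 1747 of the 2616 (66.8%), against 58.1% of all tested sites, and below both at 35, against 3.89%. At an unadjusted p under 0.05, 1027 members (39.3%) were higher, against 33.1% of all tested sites. There were 4 lower (0.153%), against 1.15% of other A-to-G sites and 2.39% of C-to-T sites. Leaving out either Anti-G3BP1 library gave 0 called members, whereas leaving out IgG replicate 1 gave 64 and IgG replicate 2 gave 80. The filter on edited reads admits sites through either antibody, but members that passed it do not stand for all members. The 28 called sites lay in 28 genes, 25 in 3′ untranslated regions and 3 in coding sequence. T stood before 18 of the 28, against 1321 of the 2616 tested, and G after 17, against 1494.

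The Tuba1a site, 87 bases past the coding sequence, held 56 of 719 and 51 of 885 reads edited with Anti-G3BP1, against 3 of 640 and 3 of 613 with IgG (log2 odds ratio 3.78 ± 0.64, adjusted p = 0.0328 in the quasi-binomial fit). The Apba1 site had 30.1% and 24.6% with Anti-G3BP1 and 0 edited reads of 173 with IgG. That allows up to 1.73% over the 2 IgG libraries, so the pooled share was at least 15.6-fold higher with Anti-G3BP1. The Mapt site, in the gene of the axonal protein tau, had 20.7% and 18.2% with Anti-G3BP1, against 2.6% and 1.82% with IgG (3.29 ± 0.76).

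The Uchl1 site, in a neuronal deubiquitinase gene, had 7.44% and 6.70% with Anti-G3BP1, against 0.552% and 1.36% with IgG (2.91 ± 0.51). In the coding sequence, the Stmn2 site had 15.7% and 12.1% with Anti-G3BP1, against 4.11% and 4.07% with IgG (1.87 ± 0.37). The Dcc site on chromosome 18 had 29.0% and 36.0% with Anti-G3BP1, against 8.38% and 13.2% with IgG (2.01 ± 0.30). At each of these 6 sites the lowest Anti-G3BP1 library stood above the highest IgG library, and the adjusted p lay between 0.0328 and 0.0486 in the quasi-binomial fit.

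High editing did not always come with a large difference. The most edited member, in the 3′ untranslated region of Plxna1, a semaphorin co-receptor gene, held 336 edited reads over the 4 libraries. It had 19.1% and 28.6% with Anti-G3BP1, against 11.6% and 16.9% with IgG (0.95 ± 0.29, adjusted p = 0.0911). The most edited member of Stox2 had 17.9% and 19.3% with Anti-G3BP1, against 15.4% and 13.9% with IgG. Rian, an imprinted nuclear non-coding RNA, had a member that ran the other way, with 8.42% and 15.8% with Anti-G3BP1, against 16.7% and 19.7% with IgG. Its log2 odds ratio was -0.57 ± 0.32 and its adjusted p 0.232. No edited read was seen at these 3 sites in untreated RNA, which allows at most 0.589%, 0.466% and 0.938%.

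The other tables offer libraries that the rule did not use. In fixed E10.5 embryo, 588 members had 10 or more reads in all 6 libraries, and its own untreated libraries had 0.135% and 0.178% edited reads at them. The fixed Anti-G3BP1 libraries had 0.757% and 0.747%, and the fixed IgG libraries 0.325% and 0.420%. Untreated edited reads were seen at 53 and 22 of the 588, at mean depths of 131 and 36.3 reads. The untreated shares lay below all 4 antibody libraries and above 0, and a site had to be listed in that table to be read at all.

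The excess with Anti-G3BP1 recurred in all 3 tables. It was 2.02-fold in fixed E10.5 embryo. At 3858 members in E12.5 brain the share was 2.07% and 1.26% with Anti-G3BP1, against 0.336% and 0.663% with IgG, a 3.33-fold difference. At 7746 members in E16.5 brain it was 1.58% and 1.52% with Anti-G3BP1, against 0.570% and 0.576% with IgG, a 2.71-fold difference. The mean log2 ratio over the 3 tables was 1.40, or 2.63-fold, and permuting the antibody labels inside each table (exact, two-sided) gave p = 0.00926, the smallest of its 216 arrangements. A-to-G sites that had untreated edited reads in the fresh-frozen table had 1.52, 1.95 and 1.44-fold in the same 3 tables. In fixed embryo that class had 6.84% and 5.70% with Anti-G3BP1 and 4.05% and 4.23% with IgG, and 5.03% and 6.76% in untreated libraries. Its editing without the enzyme is part of both sides of its ratio, and the rule split the classes by such reads. No conclusion is therefore drawn from the difference in fold between the 2 classes, here or in the closing part. For members with any 1 table left out, the smallest p that remains is 0.0556.

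**Figure D5:**
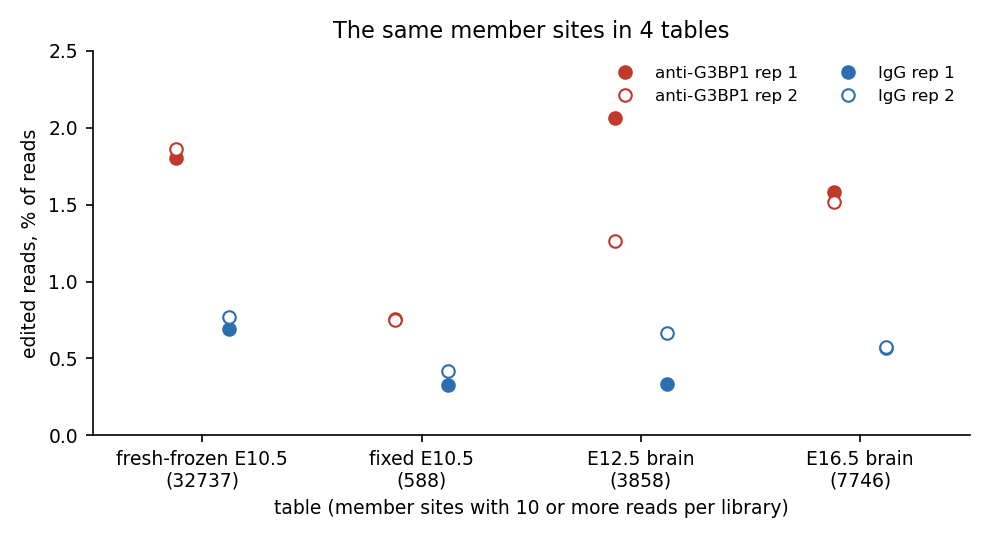
Edited reads as % of reads (y axis) at members in 4 tables (x axis, with the number of members read in each), 1 point per library and Anti-G3BP1 left of IgG. In each table both Anti-G3BP1 points lie above both IgG points, with the widest spread between replicates in E12.5 brain, at 2.07% and 1.26% with Anti-G3BP1.

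Single called sites were read again in each table. In E16.5 brain, 25 of the 28 called sites had 10 or more reads in all 4 libraries. At 23 of these 25 both Anti-G3BP1 shares lay above both IgG shares. The same held for 1086 of 1969 members tested per site (55.2%), for 2543 of all 7746 members (32.8%) and for 4.84% of all sites of that table. In E12.5 brain it held at 10 of 19 called sites, against 227 of 1065 members tested per site (21.3%) and 1.38% of all sites. In fixed E10.5 embryo it held at 2 of 9 called sites, against 40 of 235 members tested per site (17.02%) and 1.41% of all sites. The shallowest library at these sites held 12 to 69 reads in E12.5 brain, 24 to 424 reads in E16.5 brain and 34 to 331 reads in fixed embryo. No called site lay lower without overlap in any of the 3 tables, against 1.65%, 0.235% and 1.97% of all sites in E16.5, E12.5 and fixed E10.5. Members tested per site stood at 1.37%, 0.657% and 4.68%. With rates this low, 0 among 25, 19 and 9 called sites is no finding. The exceptions in E16.5 brain were the Mex3a site, with 4.40% and 2.15% with Anti-G3BP1, against 4.04% and 0% with IgG, and the Serinc1 site, with 2.15% and 1.62% with Anti-G3BP1, against 1.88% and 1.46% with IgG.

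The tables were made separately, so levels are set side by side with no comparison between them. The Apba1 site had 5.03% and 9.36% with Anti-G3BP1 in E16.5 brain, against 1.09% and 1.06% with IgG. The Mapt site had 9.54% and 10.2% with Anti-G3BP1, against 2.38% and 4.05% with IgG, and the Map1b site 15.1% and 12.4%, against 4.53% and 4.31%. The Tuba1a site had 1.5% and 3.27% with Anti-G3BP1, against 0.840% and 1.05% with IgG, and in E12.5 brain it had 3.11% and 3.67% with Anti-G3BP1, against 0% and 0.633% with IgG. At the Mest site, in an imprinted gene of fetal growth, the antibodies came close, with 14.4% and 15.1% with Anti-G3BP1 and 12.7% and 13.3% with IgG in E16.5 brain. The Mest groups overlapped in E12.5 brain, with 24.3% and 15.0% with Anti-G3BP1, against 2.90% and 19.4% with IgG. They also overlapped in fixed embryo, with 2.51% and 3.32% with Anti-G3BP1, against 2.80% and 4.44% with IgG.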

How the data were processed

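Each deposited editing table holds 2 counts per site and library, per the file headers: reads covering the site and reads with the edited base. Expression was deposited as TPM by the authors. The submitters' processing notes name GATK 4.5.0.0, featureCounts 2.0.1, Subread, HISAT2 2.2.1, BWA 0.7.17 and Picard 3.1.1, and the builds mm10 and GRCm38. The sources used here give neither their roles nor the rule for listing a site.

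Repeated lines were removed and the sites were placed on GENCODE M21 transcripts. The transcript base was the expected one at all 104734 sites that could be checked. Edited shares pool reads over sites. Genes (50 or more reads per library) and sites (8 or more edited reads over the antibody libraries) were tested over the whole table with a quasi-binomial model. Its dispersion was moderated by squeezeVar (limma 3.58.1, R 4.3.3) after 0.25 edited and 0.25 unedited reads were added, with Benjamini-Hochberg adjustment at 0.05. limma on log2(TPM + 1) used genes with 1 TPM or more in 2 libraries. Alternatives include edgeR 4.0.16, limma on the empirical logit, other filters and left-out libraries. Replicate numbers share no stated source, and same-numbered deviations correlated at -0.020 over member genes.

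Named genes are a selection from the 12 with most members, the called genes with the largest change or smallest p, up to 3 per list with most members, and G3bp1, G3bp2 and Caprin1. Named sites come from the 12 with most edited reads and the 8 called ones with the largest change. The 12 lists, the members and the tests were chosen with earlier results of these data known. Runs of members, stretches and the Cox4i1, Uchl1, Stmn2 and Mex3a sites were named after their values were seen. Reads carry no stated molecular identifiers, so limits cover counting error only.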

Additional observations from a re-analysis of the deposited data

How the results depend on the processing

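The share and detection differences kept their direction under every alternative run, with the share between 1.26 and 1.40 on the log2 scale when 1 library was left out, and detection between 1.09 and 1.5. Gene and site calls depended on the settings. edgeR called 17 genes but only 6 of the 12 reported. Against 12 genes, 1 was called where each library had 20 or more reads, 33 on REF A alone and 0 on REF T alone (574 at an unadjusted p under 0.05). There were 0 genes with 80 or more untreated reads, no site edited in 50% or more of reads, the top 100 members left out, thinned reads, limma, 1 dispersion value, against the median change, or any library left out (0 to 0). There were 173 with 100 or more reads per gene, 254 with no read filter and, in alternatives chosen after seeing the data, 356 with robust moderation and 594 with 20 or more edited reads. Against 28 sites, 0 were called with no site at 50% or more, the top 100 left out, thinned reads, REF T alone, limma or against the median change. There were 15 at sites listed under 1 gene, 81 on REF A alone, 10 with edgeR, 43 with 1 dispersion value, 86 with robust moderation, 18 with no minimum and 341 with 20 or more edited reads. Leaving out 1 library gave 0 to 80. With the replicate block 0 genes and 0 sites were called, against 12 and 28 without it, and the numbers share no stated source. The cause of these changes was not tested. In the other tables, leaving out the fixed, E12.5 or E16.5 table gave 1.59, 1.23 and 1.37 for members (exact permutation p = 0.0556, the smallest possible). The log2 difference from A-to-G sites with untreated reads, which the split by those reads affects, was 0.84, 0.66 and 0.59. Members near another were 47.8% at 20 or more reads, 47.4% at 80 or more untreated reads, 27.4% within 20 bases and 60.6% within 100 bases, and T preceded 40.1% of edited reads. Expression calls numbered 94 without IgG replicate 2 and 0 in all other fits. Tuba1a reversed to -0.32 without the top 100 members, which removes its main site, and G3bp1 ranged from -0.043 to 4.38 when 1 library was left out. Gria2, at -0.10 as reported, had 0.10 at 20 or more reads, 0.0056 at 80 or more untreated reads, 0.39 thinned, 0.0057 at sites under 1 gene and -0.29 to 0.013 when 1 library was left out. Depth limits single members, most of which held only 2 edited reads.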
